A study of Gossypium hirsutum with 24 samples.

Results

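The comparison described here is the first step of boll growth without a larva, from the day the flower opens (0 days post anthesis, dpa) to 2 dpa. It used 6 of the 24 Affymetrix Cotton GeneChip arrays of the series, 3 of 0 dpa control bolls (CN) and 3 of 2 dpa CN bolls, chosen by their stage and infection labels. All bolls came from field-grown Gossypium hirsutum L. cv. Bikaneri narma. The other 18 arrays covered CN bolls at 5 and 10 dpa and bolls infested with larvae of the bollworm Helicoverpa armigera (BS) at 0, 2, 5 and 10 dpa. Per the methods, complete bolls went into the RNA at 0 and 2 dpa but only the infested portion, with its matching control, at 5 and 10 dpa, each replicate pooled bolls from 5 plants, and CN and BS plants stood in separate plots. Larvae were put on at flower opening and stayed on the 0, 2 and 5 dpa BS bolls until collection. Both plots were under nylon nets, and CN bolls, like BS bolls, were covered with paper bags that let in air. Time under the bag thus cannot be told apart from stage in this comparison. The 10 dpa BS bolls lost their larva on day 5 and were left to grow without it, for 10 further days according to the methods. The label of 10 dpa, counted from flower opening, leaves only days 5 to 10 for this. Values at 5 and 10 dpa, given beside the comparison below, thus also differ from it in the tissue taken, and 10 dpa BS in the absence of a larva. No source used here gives the hour of the day at which bolls were collected. The methods count the 0 dpa collection in hours after larvae were put on, and those at 2 and 5 dpa in days. The hour of collection may thus have differed between 0 and 2 dpa. A complete boll holds ovary wall, ovules, young fibre and whatever floral parts were still attached, so fewer cells of a type and less RNA per cell cannot be told apart in these values.

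In cotton, fibre cells start to bulge from the outer layer of the ovule around the day the flower opens and then lengthen for many days, while the fertilised ovules start seed growth and petals and stamens wither and drop. Lengthening of plant cells needs enzymes that loosen the wall (expansins, xyloglucan endotransglucosylases) and water taken into the vacuole, and the fibre wall later thickens by cellulose deposition. Gene names below are those of the closest described match, in most cases from Arabidopsis, and the roles given are those known for that match.

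The values are log2 expression, centred on each probe set's median over the 24 arrays, so a value of 0 is that median and a difference of 1 between groups is a 2-fold change. Levels of different transcripts could therefore not be compared with each other. A probe set was called raised or lowered where its 2 dpa CN minus 0 dpa CN difference reached 3-fold with a Benjamini-Hochberg adjusted p of at most 0.01 in limma. Replicates lay close together. The correlation between arrays of 1 group was 0.951 to 0.96 at 0 dpa CN and 0.907 to 0.92 at 2 dpa CN, against 0.256 to 0.286 between the groups, and the median SD of a probe set was 0.0864 and 0.0743.

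Every result below rests on the 2 dpa CN arrays, so their place among the other groups is given first. In 1267 probe sets that were higher in BS than in CN at both 5 and 10 dpa, a choice that used none of the 6 arrays compared here, the median value was -1.15 at 0 dpa CN, -0.27 at 2 dpa CN, -1.51 at 5 dpa CN and -1.41 at 10 dpa CN. In BS the same probe sets had medians from 0.31 to 1.80. The choice itself set CN low and BS high at 5 and 10 dpa, so only 0 and 2 dpa CN can be compared here. Of these, 2 dpa CN lay nearer to the BS medians. The 533 probe sets lower in BS at both of those stages gave a median of 0.45 at 0 dpa CN, 0.39 at 2 dpa CN and 1.50 at both later CN stages, against -1.93 to -0.41 in BS. Here too the choice fixed CN above BS at 5 and 10 dpa. Distances between group means over all probe sets were taken as root mean squares. The 2 dpa CN mean lay 0.61 from 0 dpa CN, 0.65 from 5 dpa CN and 0.81 from 10 dpa CN. It lay 0.63 from 0 dpa BS, 0.68 from 5 dpa BS, 0.92 from 2 dpa BS and 1.25 from 10 dpa BS. The 0 dpa CN mean lay 0.57 from 5 dpa CN and 0.75 from 10 dpa CN. It lay 0.8 from 0 dpa BS, 0.97 from 5 dpa BS, 1.13 from 2 dpa BS and 1.48 from 10 dpa BS. Distances to the later CN stages were thus slightly larger for 2 dpa CN than for 0 dpa CN. Every BS group lay nearer to 2 dpa CN than to 0 dpa CN. The array's spike-in controls did not set the 2 dpa CN arrays among the BS arrays. The 27 hybridization controls averaged -0.38 to -0.20 on the 2 dpa CN arrays, inside the range of all CN arrays (-0.59 to -0.16) and outside that of BS (0.10 to 0.64). The 42 poly-A controls averaged -0.74 to -0.63 there, against -1.24 to -0.41 over CN and 0.43 to 1.21 over BS. Why 2 dpa CN lay nearer to BS than 0 dpa CN did, in the 1267 probe sets and in the distances over all probe sets, was not tested.

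**Figure D1:**
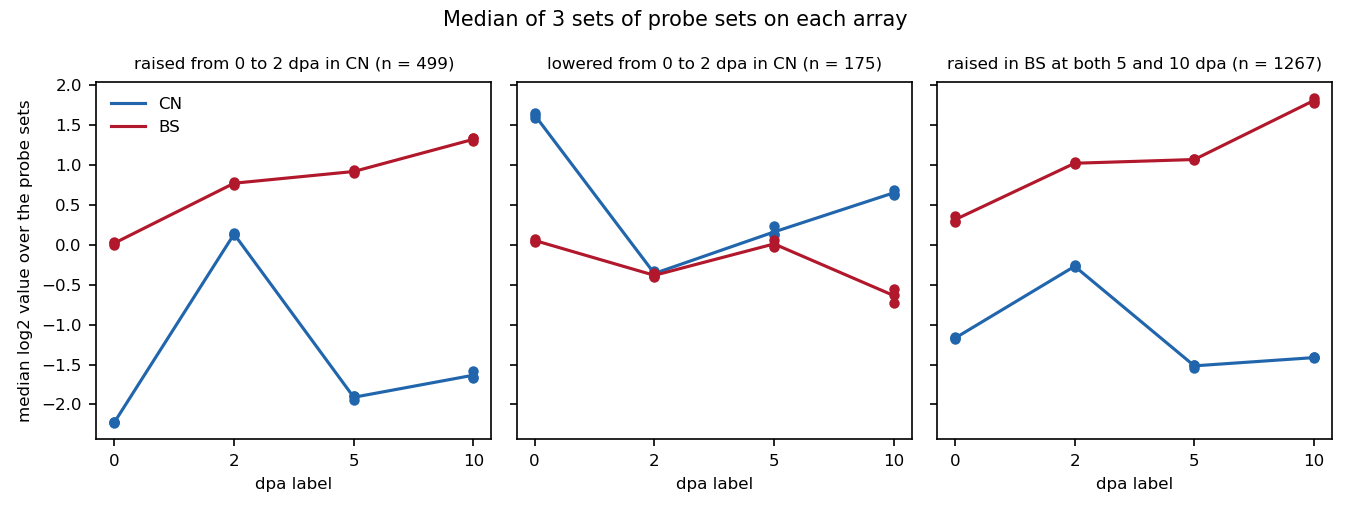
Median log2 value of 3 sets of probe sets on each array (points, 3 arrays per group; lines join group means) against the dpa label, evenly spaced on the axis, for CN (blue) and BS (red). The 499 probe sets raised from 0 to 2 dpa in CN were low again in CN at 5 and 10 dpa, with group medians of -1.94 and -1.65. The 1267 probe sets raised in BS at both 5 and 10 dpa were higher at 2 dpa CN than at 0 dpa CN. Their low CN values at 5 and 10 dpa follow from how they were chosen.

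Between 0 and 2 dpa, control bolls gained transcripts for asparagine synthase, expansin-like B1, ethylene synthesis, NAC and WRKY factors and several defence proteins, by up to 8.45 on the log2 scale. They lost transcripts for the thiamine enzymes THI1 and thiC, the flower factor MYB21, cytokinin oxidase, an alpha-tubulin and fasciclin-like arabinogalactan proteins, with differences down to -6.63. Of 23977 probe sets, 674 were called (2.81%). The 499 raised (2.08%) outnumbered the 175 lowered (0.73%), which made 74% of the calls rises. That share was 55% after quantile normalization of the deposited values (591 raised, 483 lowered), and without a fold threshold it was 43.4%. The 3 arrays of 2 dpa lay wholly apart from the 3 of 0 dpa in 57.7% of all probe sets (all higher in 23.4%, all lower in 34.4%), and 11885 had an unadjusted p below 0.05. The median difference over all probe sets was -0.07.

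Descriptions were at hand for 3049 of the probe sets, and these came mostly from lists of transcripts that responded to infestation. Among them 10.6% were raised and 2.95% lowered, with a median difference of 0.10, and the counts of the gene lists below are read against these shares rather than against those of all probe sets. The raised share was near 10.6% for expansins (12.9%), brassinosteroid and sterol (13.2%), auxin (11.1%), AP2-EREBP (10.8%) and cytokinin (9.52%). It was lower for gibberellin (7.69%), bHLH and bZIP (7.27%) and jasmonate (6.25%). Counts of rises in these lists are therefore not read as results about the lists. Many cotton probe sets match several copies of a gene, so values of near-identical family members are not separate measurements of each gene.

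The expansin list held the largest rise of all, in an expansin-like protein. Expansin-like B1 (EXLB1) lay at -8.10, -7.90 and -7.93 on the 0 dpa arrays and at 0.39, 0.45 and 0.59 on the 2 dpa arrays, and rose by 8.45 ± 0.13 (log2 difference ± SE, adjusted p = 4.08e-21). Its 5 and 10 dpa CN means were both -8.19, so that only the 2 dpa CN group was near the BS means of 0.72 at 0 dpa and 0.82 at 2 dpa. A second EXLB1 probe set rose by 7.09 ± 0.12 and was at -6.09 and -6.17 in the later CN stages. Expansin A1 (EXPA1) behaved differently. One of its probe sets read -3.82, -3.71 and -4.05 at 0 dpa and 0.14, 0.18 and 0.15 at 2 dpa (4.02 ± 0.09, adjusted p = 2.52e-18), and its mean was 3.43 at 5 dpa CN and 4.02 at 10 dpa CN. The other EXPA1 probe set rose by 2.27 ± 0.09 and had means of 0.51 and -0.45 at those stages. EXPA5 fell: its arrays read 2.61, 2.59 and 2.63 at 0 dpa and 0.11, 0.01 and -0.10 at 2 dpa, a difference of -2.60 ± 0.07 (adjusted p = 6.9e-18). In all, 4 of 31 expansin probe sets were raised and 2 lowered, with a median of -0.14.

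Xyloglucan enzymes cut and rejoin the tethers between cellulose fibrils. Of 21 probe sets, 5 were raised and 1 lowered, with a median of -0.01. TCH4 went from -4.86, -4.96 and -4.86 to 0.11, 0.15 and 0.17 (5.04 ± 0.06, adjusted p = 3.39e-22) and was back at -4.10 at 5 dpa CN. Of the EXGT-A1 probe sets, 4 rose, by 2.22 to 3.49, and 1 fell by 1.67. The one that fell reached 3.55 at 10 dpa CN, and the probe sets of EXGT-A1 therefore did not move as 1 transcript. A polygalacturonase, which cuts pectin, was the only 1 of 21 pectin enzyme probe sets called, with a rise of 3.54 ± 0.10. The tonoplast aquaporin GAMMA-TIP, which passes water into the vacuole, rose in 3 probe sets by 2.39, 3.51 and 4.32 and fell by 1.70 in another. The widest spread was in the strongest of these: its 0 dpa arrays read -2.27, -2.83 and -3.61, its 2 dpa arrays 1.47, 1.34 and 1.44, and the groups did not overlap.

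Called transcripts of wall polymers and the cytoskeleton were lower at 2 dpa, with 1 exception (CSLG2). Fasciclin-like and other arabinogalactan proteins are cell-surface proteoglycans, several of them abundant in growing fibre. None of their 18 probe sets was raised and 5 were lowered, by 2.03 to 2.19, with a list median of -0.16. FLA6 went from 0.98, 1.29 and 1.10 to -0.95, -1.04 and -1.21 (-2.19 ± 0.15, adjusted p = 1.85e-10), and its mean was 3.77 at 10 dpa CN. Cellulose synthase CESA3 fell from 1.42, 1.75 and 1.43 to -0.30, -0.69 and -0.62 (-2.07 ± 0.13, adjusted p = 5.13e-11), and CESA8 fell by 1.63 ± 0.11, a call lost without 0 dpa CN replicate 3 (-1.50). The cellulose synthase-like CSLG2 rose by 2.96 ± 0.12 among these 13 probe sets. The 3 of 47 tubulin and actin probe sets that were called were all TUA5, an alpha-tubulin, and all fell. The strongest read 3.71, 3.01 and 3.25 at 0 dpa and 0.02, -0.13 and -0.02 at 2 dpa (-3.36 ± 0.14, adjusted p = 2.47e-14), and its mean reached 6.92 at 10 dpa CN.

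**Figure D2:**
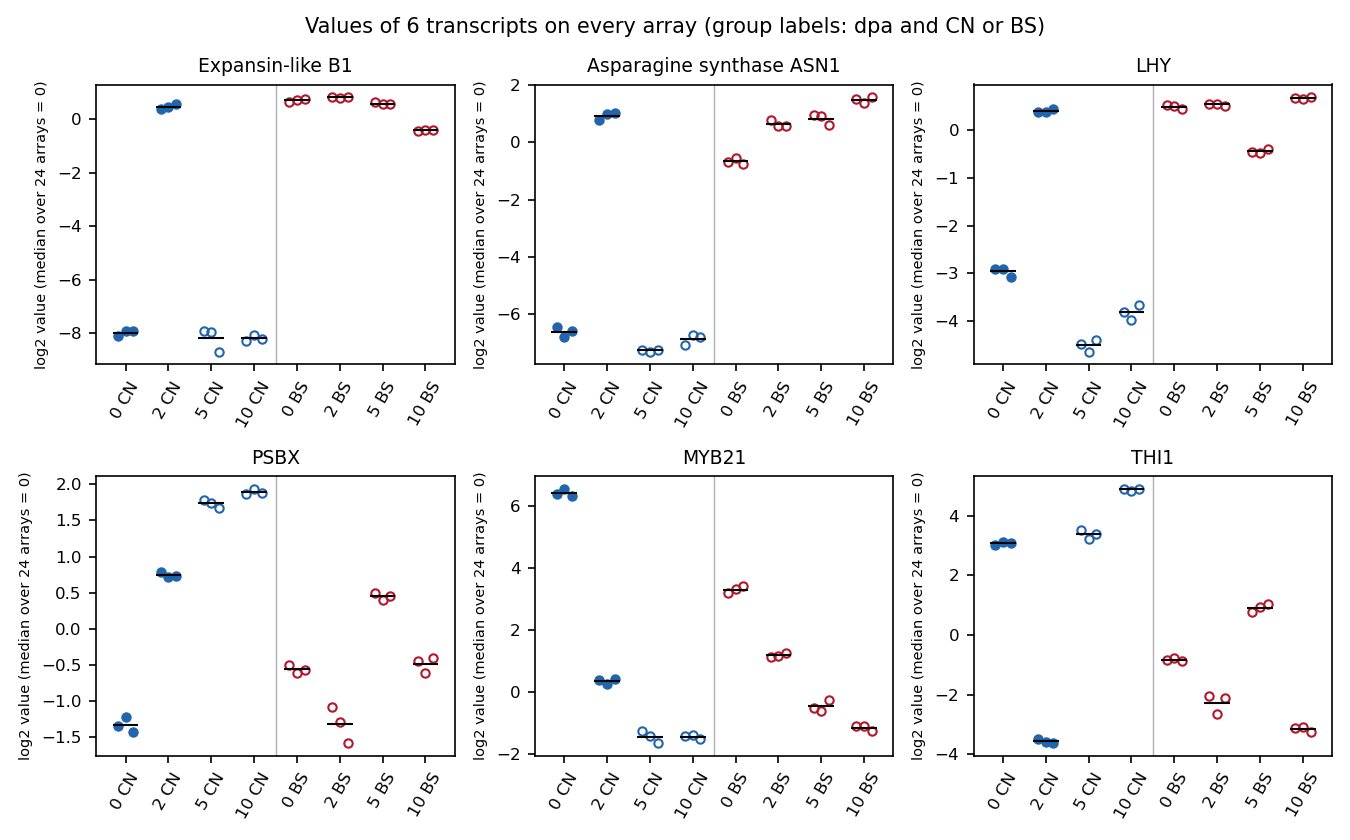
Log2 values (each centred on its median over 24 arrays) of 6 probe sets on every array; filled points are the 6 arrays compared, open points the other groups, CN blue and BS red, and bars mark group means. EXLB1, ASN1 and LHY were near the BS arrays only at 2 dpa among the CN stages, PSBX stayed up at 5 and 10 dpa CN (1.74 and 1.89), MYB21 fell and stayed low, and THI1 was low at 2 dpa CN alone among the CN stages.

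Asparagine synthase moves nitrogen into asparagine and is induced by darkness and sugar starvation in Arabidopsis, where ASN1 is also called DARK INDUCIBLE 6. Of 7 probe sets described as ASN1, 6 were raised and none lowered. The strongest read -6.46, -6.81 and -6.59 at 0 dpa and 0.77, 0.98 and 1.01 at 2 dpa (7.54 ± 0.11, adjusted p = 1.87e-21). A second rose by 7.16 ± 0.16 and the other 4 by 2.46 to 3.72. The probe set that was not called gave -0.49 ± 0.05. In the later CN stages the 2 strongest were at -8.03 to -6.86, below their 0 dpa means of -6.62 and -6.44. Of the 44 probe sets in the wider list of starvation, senescence and dark-induced transcripts, 10 were raised and 3 lowered (median 0.51). SAG29, a sugar transporter, rose by 3.86 ± 0.06 and SAG21 by 2.68 and 2.78, and DIN3, which breaks down branched-chain keto acids, rose by 1.70 ± 0.05. EXORDIUM like 5 fell in both of its called probe sets, by 1.94 and 2.02.

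Transcripts of trehalose metabolism rose as well. Trehalose 6-phosphate is a sugar signal made by the synthases and removed by the phosphatases. A phosphatase went from -3.68, -4 and -3.88 to 0.57, 0.57 and 0.56 (4.42 ± 0.07, adjusted p = 4.92e-21), and TPS11, a synthase family member, rose by 3.58 ± 0.08. In all, 4 of 8 such probe sets were raised (median 1.38). P5CS2, which makes proline, rose by 5.41 ± 0.10. Of 4 galactinol synthase probe sets 1 was raised and none lowered. It was GOLS1 (1.99 ± 0.12), a call lost after quantile normalization (1.26).

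Hormone lists differed in how many of their members were called. Ethylene had 14 of 57 probe sets raised and none lowered (median 0.83), and 7 of the 14 were synthesis enzymes. ACC synthase ACS1, the committed step, read -6.86, -6.03 and -6.85 at 0 dpa and -1.24, -1.31 and -1.43 at 2 dpa (5.26 ± 0.15, adjusted p = 6.73e-17). The ethylene-forming enzyme EFE, which completes the hormone, went from -4.33, -4.28 and -4.44 to 0.21, 0.19 and 0.21 (4.55 ± 0.06, adjusted p = 4.34e-22). Both were low again at 5 dpa CN, at -6.44 and -3.13. ERF2, a response factor, rose by 3.62 ± 0.06, the receptor ETR2 by 1.81 ± 0.06 and EBF1, which marks the factor EIN3 for breakdown, by 2.17 ± 0.07.

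Abscisic acid had 12 of 42 raised and none lowered (median 0.69). ABA2, an enzyme of its synthesis, rose by 3.19 ± 0.17 and 2.16 ± 0.14, and the repressor-type factor RAV1 by 4.17 ± 0.14. The weaker ABA2 probe set shares the number in its identifier with an uncalled one described as TAPETUM 1 (1.25 ± 0.14). Its name is therefore uncertain. RD22, a BURP-domain protein that in cotton is known from fibre, rose by 1.60 to 2.34 in 3 probe sets whose means were 1.04 to 1.99 at 5 and 10 dpa CN. The strongest of them had spread-out 0 dpa arrays at -1.23, -1.72 and -2.09, and 2 dpa arrays at 0.59, 0.62 and 0.77. Another (1.61 ± 0.08) lost its call without 2 dpa CN replicate 3 (1.52) and with arrays centred on the hybridization controls (1.57).

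In the auxin list 6 of 54 probe sets were raised and 2 lowered. GH3.3, which ties auxin to amino acids, went from -6.40, -6.06 and -6.32 to 0.00, -0.09 and 0.00 (6.23 ± 0.10, adjusted p = 4.78e-21). The repressor IAA14 fell by 2.02 ± 0.14, and YUC5, of auxin synthesis, by 1.67 ± 0.11, a call lost without 0 dpa CN replicate 2 (-1.58). Cytokinin had 2 of 21 raised and 1 lowered. The one lowered was the strongest of that list: CKX3, which degrades cytokinin, read 4.18, 4.07 and 4.13 at 0 dpa and 0.04, 0.00 and 0.29 at 2 dpa (-4.02 ± 0.12, adjusted p = 8.39e-17), and it stayed at -0.43 and -0.07 in the later CN stages.

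Gibberellin had 3 of 39 raised and 2 lowered. The synthesis genes GA3OX3 and GA4 rose by 2.01 ± 0.11 and 2.46 ± 0.10 and the degrading GA2OX8 by 2.91 ± 0.13, while RGL1, a DELLA repressor, fell by 1.62 ± 0.08, a call lost with arrays centred on their medians (-1.57). Both arms of gibberellin turnover thus held a riser. The GA2OX8 call was lost after quantile normalization (1.48). Among brassinosteroid and sterol probe sets 9 of 68 were raised and 3 lowered. BAS1, which inactivates brassinosteroids, rose in 3 probe sets by 1.85 to 3.84, CPD of their synthesis fell by 1.73 ± 0.18 and the receptor BRI1 by 1.96 ± 0.14. BRH1, a RING protein, rose in one probe set (2.63 ± 0.13) and fell in another (-2.69 ± 0.18), and 2 of the 9 risers were the beta-amylase BMY4, which entered the list through its description.

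Jasmonate had the lowest median of the hormone lists (-0.35), with 2 of 32 raised and 3 lowered. JAZ9, a repressor of jasmonate responses that is itself induced by the hormone, read 2.57, 2.68 and 2.63 at 0 dpa and -0.02, -0.04 and 0.02 at 2 dpa (-2.64 ± 0.09, adjusted p = 6.29e-16). JAZ2 fell by 2.19 ± 0.06. Allene oxide synthase, an enzyme of jasmonate synthesis, fell by 1.74 ± 0.06 in one probe set and rose by 2.14 ± 0.15 in another.

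NAC factors had the largest share of raised members among the transcription factor lists, 11 of 25, with none lowered and a median of 1.12. Anac025 read -6.18, -6.70 and -6.38 at 0 dpa and 0.08, -0.02 and 0.04 at 2 dpa (6.46 ± 0.12, adjusted p = 6.94e-20). NAC1 rose by 4.08 ± 0.10, and RD26 and ATAF1, both tied to stress and senescence in Arabidopsis, by 2.25 to 2.65. In the WRKY list 15 of 74 were raised and none lowered (median 0.33), of which 11 carry a WRKY name and 4 are MAP kinase cascade members whose descriptions mention WRKY factors. WRKY70 went from -2.79, -2.89 and -3.15 to 1.18, 1.33 and 1.31 (4.21 ± 0.08, adjusted p = 4.37e-20). WRKY75, WRKY23 and WRKY33 rose by 3.71, 3.69 and 3.42. The kinase MPK3 went from -5.05, -4.82 and -5.09 to -0.13, -0.17 and -0.06 (4.87 ± 0.07, adjusted p = 1.1e-21). The AP2-EREBP list had 7 of 65 raised (10.8%) and the bHLH and bZIP list 4 of 55 (7.27%), with none lowered in either. Among all described probe sets 10.6% were raised and 2.95% lowered.

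Called defence proteins were nearly all raised, as were most called probe sets with a description (323 raised, 90 lowered). A peroxidase went from -6.50, -6.65 and -6.37 to 0.64, 0.71 and 0.81 (7.22 ± 0.12, adjusted p = 6.25e-21), and an osmotin-like pathogenesis-related protein from -6.73, -5.88 and -6.54 to 0.69, 0.78 and 0.85 (7.15 ± 0.15, adjusted p = 2.59e-19). A mannose-binding lectin of the curculin type was the third largest described rise (7.41 ± 0.09) and read 2.35, 2.33 and 2.23 on the 2 dpa CN arrays, above its BS means of -0.94 at 0 dpa and 0.88 at 2 dpa. The list of pathogenesis-related proteins and inhibitors as a whole had 7 of 46 raised (15.2%) and 1 lowered (2.17%), with a median of 0.09. All described probe sets gave 10.6%, 2.95% and 0.10. The chitinase-like POM1 was on both sides: one probe set rose from -4.30, -4.46 and -4.51 to 1.04, 1.01 and 1.12 (5.48 ± 0.07), and another fell from 1.37, 1.48 and 1.46 to -1.56, -1.75 and -1.74 (-3.12 ± 0.12) and reached 4.70 at 10 dpa CN. Of 31 peroxidase and glutathione transferase probe sets 5 were raised and none lowered. Of 32 heat shock probe sets 2 were lowered, the factor HSFC1 and a DNAJ protein, and the 1 riser was EXGT-A1, a wall enzyme.

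**Figure D3:**
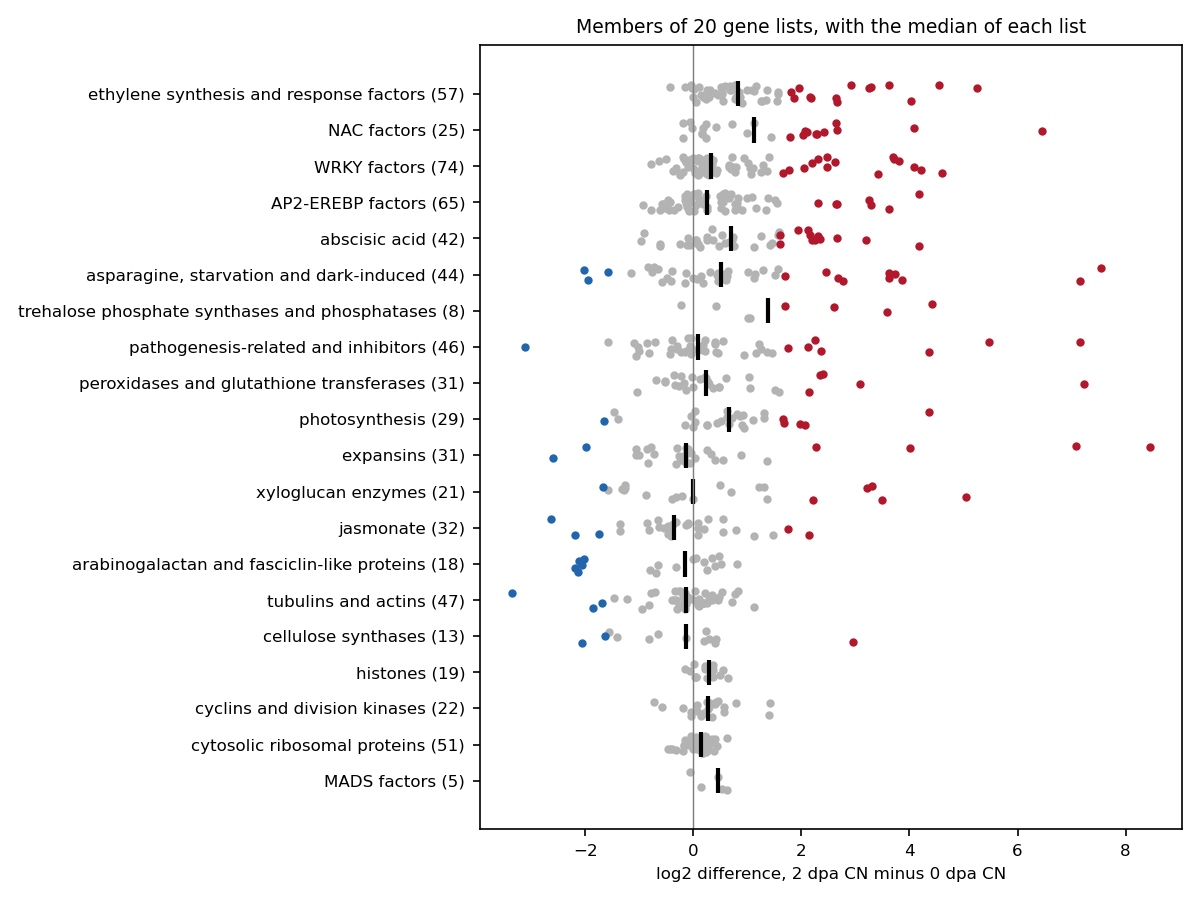
Log2 difference, 2 dpa CN minus 0 dpa CN, of each member of 20 gene lists (number of probe sets in brackets); red members were raised, blue lowered, grey not called, and black bars mark list medians. NAC, ethylene and trehalose lists lie to the right, arabinogalactan proteins and tubulins have calls only on the left, and histones, cyclins, ribosomal proteins and MADS factors have none.

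Photosynthesis transcripts included some that rose and stayed high in older control bolls. Of 29 probe sets 5 were raised and 1 lowered (median 0.67). PSBX, a photosystem II subunit, read -1.34, -1.22 and -1.43 at 0 dpa and 0.79, 0.72 and 0.73 at 2 dpa (2.07 ± 0.09, adjusted p = 8.16e-14), and its means were 1.74 and 1.89 at 5 and 10 dpa CN. PSAL, LHCB3 and LHCA4, of photosystem I and the antennae, rose by 1.98, 1.67 and 1.65 and lay between 1.06 and 1.45 in the later CN stages. The fifth, CAB1, rose most (4.37 ± 0.06) and was back at -2.57 at 5 dpa CN. LHCB4.3, also of the antenna, fell by 1.66 ± 0.06. A beta-ketoacyl-CoA synthase, which lengthens fatty acids, likewise rose, from -0.25, -0.68 and -0.80 to 1.70, 1.70 and 1.71 (2.28 ± 0.14), and was at 3.41 and 3.78 at 5 and 10 dpa CN. HDG11, a homeodomain factor of the plant epidermis, rose by 1.75 ± 0.10 and stayed at 1.36 and 1.15. PSAL, LHCB3, LHCA4, HDG11 and EXPA1 were singled out after their values were seen.

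The clock transcript LHY, which peaks around dawn in Arabidopsis, went from -2.91, -2.92 and -3.07 to 0.38, 0.40 and 0.45 (3.37 ± 0.07, adjusted p = 4.98e-19), against -4.52 and -3.82 at 5 and 10 dpa CN. A second LHY probe set gave 0.84 ± 0.05 and missed the fold threshold. Of 5 clock probe sets 2 were raised, the other being ARR2 (2.45 ± 0.07). ARR2 entered the list through its description and is also 1 of the 2 raised members of the cytokinin list. Stage and hour of collection cannot be told apart for clock transcripts such as LHY.

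The largest fall was in THI1, of thiamine (vitamin B1) synthesis. THI1, which makes the thiazole part of the vitamin, read 3.01, 3.12 and 3.09 at 0 dpa and -3.47, -3.57 and -3.62 at 2 dpa (-6.63 ± 0.11, adjusted p = 1.24e-20), and was at 3.38 and 4.88 at 5 and 10 dpa CN. A second thiamine synthesis transcript, of the thiC family, went from 2.22, 2.35 and 2.18 to -0.60, -0.53 and -0.68 (-2.85 ± 0.14, adjusted p = 4.96e-13), with 3.37 and 3.83 in the later CN stages. Of all probe sets described as either, counted after the largest falls were known, 3 of 4 THI1 and both thiC were lowered and none raised, and the fourth THI1 probe set gave -0.72 ± 0.08. CCL fell from 2.11, 2.16 and 2.20 to -2.10, -2.58 and -2.64 (-4.60 ± 0.16, adjusted p = 1.09e-15), with 2.52 and 4.28 later. For the 3 transcripts given array by array the 2 dpa CN group was the low one among the 4 CN stages.

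MYB21 and MIF2 fell and stayed low in the later CN stages. MYB21, a factor of petal and stamen growth, read 6.38, 6.56 and 6.31 at 0 dpa and 0.39, 0.27 and 0.41 at 2 dpa (-6.06 ± 0.10, adjusted p = 1.06e-20), and was lower still at -1.44 in both later CN stages. MIF2, a mini zinc finger protein, went from 3.72, 3.67 and 3.65 to 0.26, 0.34 and 0.35 (-3.36 ± 0.07, adjusted p = 3.13e-19) and was at -1.09 and -1.75 later. KNAT6, a homeobox factor of the meristem, fell by 2.69 ± 0.13 and a nodulin MtN21 family protein fell by 2.95 ± 0.08, with means between -0.49 and -0.05 at 5 and 10 dpa CN. GGT3, a gamma-glutamyl transpeptidase, fell by 2.87 ± 0.06 to a mean of -1.52 and was at -0.15 and 0.08 at 5 and 10 dpa CN, where part of the fall had been regained. Nicotianamine synthase, which makes a metal chelator, fell by 3.35 ± 0.12 and stayed at -3.54 and -3.32. Isocitrate lyase of the glyoxylate cycle (-2.79 ± 0.14) and a lipid transfer family protein (-2.81 ± 0.17) fell and were higher again at 10 dpa CN, at 4.61 and 1.48.

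Division and translation lists had no called member. The 19 histones ranged from -0.15 to 0.64 (median 0.28), the 22 cyclins and division kinases from -0.74 to 1.41 (median 0.27), the 7 DNA replication probe sets from -0.46 to 0.93 (median 0.57) and the 51 cytosolic ribosomal proteins from -0.46 to 0.63 (median 0.13). The 16 flavonoid probe sets had none either, from -0.49 to 0.68.

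The labelled tissue was checked against organ markers. The 5 MADS factor probe sets, described as SEP3, AGL15 and TT16, differed by -0.07 to 0.61, none of them called. Of 6 pollen and anther probe sets 1 was called, TAPETUM 1, an oxidoreductase named for the anther's nursing layer, which went from -4.04, -4.16 and -3.88 to 0.02, 0.00 and 0.03 (4.04 ± 0.07, adjusted p = 2.63e-20). The fibre list of 14 had 2 raised, both RD22, and 2 lowered, the germin-like protein GLP4 (-2.26 ± 0.09) and phosphoenolpyruvate carboxylase PEPC2 (-1.80 ± 0.05), with a median of -0.20. Annexins, which are abundant in fibre, gave 0.96 ± 0.09 and 0.85 ± 0.21 in their highest probe sets and -0.52 ± 0.11 in the lowest. Because the deposited values are centred, none of these markers could be placed as present or absent.

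The infested bolls made the same step differently. In BS, 111 probe sets were raised (0.463%) and 466 lowered (1.94%) from 0 to 2 dpa. The difference between the steps, tested as an interaction in the same fit, was more positive in BS for 164 probe sets (0.684%) and more negative for 858 (3.58%). The 499 probe sets raised in CN had a median difference of 2.23 in CN and 0.64 in BS, where their median value was already 0.03 at 0 dpa against -2.22 in CN. For EXLB1 the interaction was -8.35, from BS means of 0.72 and 0.82. The 175 lowered probe sets had medians of -1.98 in CN and -0.63 in BS. Since the members were chosen for the CN step, these medians describe them and test nothing. Some lists with no call in CN held probe sets whose steps differed. Histones had medians of 0.39 and 0.65 at 0 and 2 dpa CN and of -0.40 and -2.86 in BS, and the interaction was called negative in 14 of 19, with a median of -2.70. It was called negative in 11 of 22 cyclins and division kinases (median -1.60) and in 6 of 7 DNA replication probe sets (median -3.00), and in none of these positive. The ribosomal proteins had 1 negative and 1 positive call of 51 (median -0.81), the flavonoid list 1 negative of 16 (median 0.10) and the MADS factors none of 5 (median -0.35). The median interaction was 0.11 over all probe sets and -0.44 over those with a description. Members of these lists were described mostly in tables of transcripts that responded to infestation, in part on these same arrays. Their interaction counts thus follow in part from that choice, describe the members and test nothing about the lists. The share of interaction calls among described probe sets was not counted. CN and BS also differed in plot and in the spike-in controls, which cannot be told apart from infestation here.

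Against the infestation contrasts at 5 and 10 dpa, which share no array with the comparison, the rises and falls differed. Of the 499 raised, 367 were raised in BS over CN at 5 dpa (73.5% of them, and 23.9% of the 1533 raised there, where the background is 6.39%) and 12 were lowered (2.4%, and 2.04% of 589, background 2.46%). At 10 dpa 353 were raised (70.7%, and 16.4% of 2150, background 8.97%) and 46 lowered (9.22%, and 1.66% of 2763, background 11.5%). ASN1, EXLB1 and ACS1 were among those raised at both. The 5 dpa difference was opposite in sign for EXPA1 (-3.41 in the probe set that rose most) and for PSBX (-1.28). Of the 175 lowered, 22 were raised (12.6%) and 24 lowered (13.7%) at 5 dpa, and 15 raised (8.57%) and 85 lowered (48.6%) at 10 dpa. Over all 23977 probe sets the 2 dpa CN minus 0 dpa CN difference correlated with BS minus CN with r = 0.446 at 5 dpa and 0.373 at 10 dpa, a description across probe sets, which are not independent replicates.

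**Figure D4:**
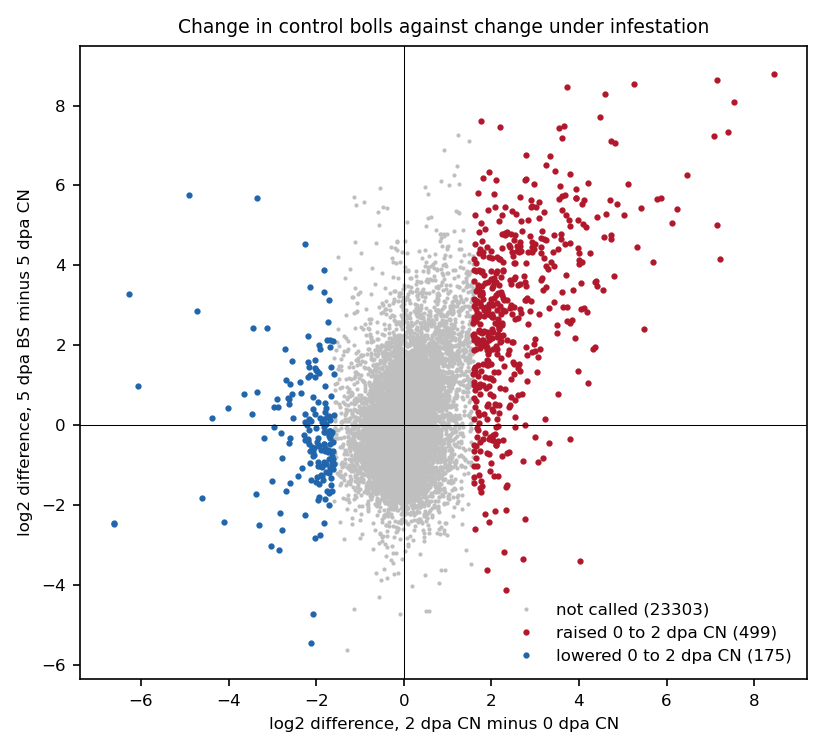
Log2 difference of 5 dpa BS minus 5 dpa CN (vertical) against 2 dpa CN minus 0 dpa CN (horizontal) for each of 23977 probe sets; red points were raised and blue points lowered in the control comparison. Most of the 499 red points lie above 0 (367 of them called raised), while the 175 blue points lie on both sides.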

How the data were processed

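Total RNA of bolls, complete ones at 0 and 2 dpa, was hybridised to Affymetrix Cotton GeneChips. The authors turned scanned intensities into deposited log2 values by RMA (background correction, quantile normalization, median polish), and row medians over the 24 arrays lie within 5e-07 of 0, from which a later centring of each probe set was inferred. Absolute levels and a filter on dim probe sets were therefore out of reach. Precision is limited by the number of arrays, 3 per group.

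Of 24132 probe sets, 103 AFFX and 52 RPTR controls were left out. Group means of the 8 groups were fitted to all 24 arrays with limma 3.58.1 in R 4.3.3 (16 residual and 3.53 prior degrees of freedom), and the contrast was tested by its moderated test with Benjamini-Hochberg adjustment over 23977 probe sets. Thresholds (adjusted p at most 0.01, 3-fold) are those of the methods, which used an unpaired test. An exact permutation test of 3 against 3 arrays cannot go below 0.1. Replicates are pools from 5 plants, so p-values measure the spread between pools. The script was tested on simulated data.

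Gene descriptions came from supplementary tables and the platform annotation, names only. Named are the 15 largest described rises and falls whose arrays do not overlap, the 2 most raised and 2 most lowered called members of each list, and all clock, MADS, pollen, fibre and asparagine synthase members. Other called list members were named after their values were seen. The members and lists were chosen with earlier results of these data known. The authors' fold changes and p-values were not used as values. They did enter through the descriptions, most of which come from tables of transcripts that passed the authors' thresholds. The alternatives were other sample sets, the methods' t-test, other scalings, other fold thresholds, a replicate block and leaving out each array.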

Additional observations from a re-analysis of the deposited data

Results flagged for a closer look

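The step from 0 to 2 dpa differed between BS and CN by a test of the difference itself, the BS change minus the CN change in the same fit, for 164 probe sets in the positive and 858 in the negative direction. The values below are that difference on the log2 scale, each past 3-fold with an adjusted p of at most 0.01 in limma. A negative one means a smaller rise or a larger fall in BS. Most of these probe sets were named for a large CN change, which the difference subtracts. Their signs and sizes therefore follow in part from that choice and describe the named probe sets only.

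Wall transcripts gave -8.35 and -7.29 for the EXLB1 probe sets, -3.78 for TCH4, -3.49 for EXGT-A1, -2.94 for the polygalacturonase and -2.13 for CSLG2, and CESA3 gave 1.86. Among asparagine synthase probe sets it was -6.23, -6.36, -2.02, -2.52 and -1.67, and for SAG29 -2.21. It was -3.97 for the trehalose phosphatase, -2.99 for TPS11, -2.05 for GOLS1, -3.52 for P5CS2 and -4.75 for GAMMA-TIP.

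Defence and storage transcripts gave -5.59 for the curculin-like lectin, -4.78 for a sugar binding protein, -6.85 for the peroxidase, -6.55 for the osmotin-like protein, -6.22 for POM1, -4.93 for a cupin and -5.33 for an aluminium induced protein. Hormone transcripts gave -4.25 for ACS1, -3.88 for EFE, -3.61 for ERF2, -5.62 for GH3.3, -2.35 for a dormancy and auxin associated protein, -2.17 for ABA2, -2.12 for GA2OX8, -2.88 for BAS1 and -2.53 for ARR2. Those that fell in CN gave 1.63 for IAA14, 1.98 for a gibberellin-regulated protein, 1.72 for BRI1, 2.04 for BRH1, 2.35 for JAZ2 and 2.63 for CKX3.

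Factors and kinases gave -5.26 for anac025, -2.60 for NAC1, -4.51 for WRKY70, -3.68 for RAV1, -2.41 for HB-5, -2.48 for BHLH32, -2.32 for another bHLH protein, -3.32 for LHY, and -4.12 and -3.58 for MPK3. Photosynthesis and surface lipid transcripts gave -3.24 for CAB1, -2.83 for PSBX and -3.07 for the beta-ketoacyl-CoA synthase, RD22 gave -2.18 and -2.73, and TAPETUM 1 -3.57.

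Among the falls, THI1 gave 5.19, CCL 4.28, a transcript matched to rice Os07g0564500 4.17, MYB21 3.94, GGT3 3.14, the lipid transfer family protein 3.12, MIF2 2.89, TUA5 2.66, the nodulin family protein 2.44, KNAT6 2.43, nicotianamine synthase 2.28, isocitrate lyase 2.04, GLP4 2.02 and the DNAJ protein 1.59. CN and BS plants stood in separate plots, so plot and infestation cannot be told apart in these differences. The spike-in controls also set the CN and BS arrays apart. The poly-A controls averaged 0.43 to 0.72 at 0 dpa BS and 1.07 to 1.21 at 2 dpa BS. In CN they averaged -0.61 to -0.57 at 0 dpa and -0.74 to -0.63 at 2 dpa. An array-level difference thus cannot be told apart from infestation either, and its part was not tested.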

How the results depend on the processing

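The counts of 499 raised and 175 lowered probe sets were the same in fits to the 6 or the 12 CN arrays, and 494 and 174 by the methods' t-test with Benjamini-Hochberg adjustment (668 in all, and 673 had the adjustment been left out). Leaving out 1 array gave 490 to 508 raised and 176 to 181 lowered, and 161 to 170 probe sets more positive and 849 to 869 more negative in BS. Quantile normalization gave 483 lowered and 573 more positive in BS. Centring on the hybridization controls gave 472 raised, 193 lowered and 96 more positive, and centring on the array median 531 and 166. A 2-fold threshold gave 1032 raised, 516 lowered, 652 more positive and 1664 more negative. No fold threshold gave 3511, 4583, 3721 and 4064. The cause of the shifts under other scalings was not tested.

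Replicate numbers did not pair the samples (correlations of same-numbered deviations 0.029, 0.009 and -0.035), and a fit with the replicate block gave 499 and 175 calls, with 164 and 858 for the interaction. Of 102 called named probe sets 3 lost their call without 1 array (RD22, CESA8 and YUC5) and 5 after quantile normalization (GA2OX8 1.48, GOLS1 1.26, a homeodomain-like protein 1.22, LOX1 1.33 and WRKY19 1.45). Centring on the array median lost RGL1 (-1.57), and centring on the hybridization controls an RD22 probe set (1.57). Quantile normalization also turned the sign of 4 uncalled ones: MS2 (0.30 to -0.18), SEP3 (0.13 to -0.04 and -0.07 to 0.23) and the fibre acyl carrier protein (-0.15 to 0.04). The median of all probe sets, -0.07, became -0.104 when arrays were centred on the hybridization controls.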
